A study of Drosophila melanogaster with 12 samples.

Results

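The genes described here encode the subunits of the vacuolar H+-ATPase (V-ATPase) of Drosophila melanogaster. They were chosen by name, as every gene of the count table whose FlyBase symbol is Vha followed by a number, AC, PPA or M. The choice gave 32 of the 17610 genes in the table. Of these, 12 encode subunits of the V1 sector and 20 encode subunits or accessory subunits of the V0 sector. They were read as 13 common subunit genes, 1 for each subunit, and 19 other paralogs of the same subunits. The regulatory subunit H is encoded by VhaSFD, whose symbol falls outside the naming rule. It is given below only beside the members and in a list of assembly and sensing factors.

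The V-ATPase is a rotary pump that uses ATP to move protons across membranes. Its soluble V1 sector hydrolyses ATP in a ring of alternating A and B subunits, and a central shaft of subunits D and F turns within that ring. The shaft drives the V0 sector in the membrane, where a ring of proteolipid subunits rotates past subunit a and protons pass between them. Peripheral stalks of E and G subunits, with subunits C and H, hold the static parts together. The pump acidifies lysosomes, endosomes and secretory vesicles, loads synaptic vesicles, and energises fluid secretion in the insect Malpighian tubule. Drosophila carries several paralogs of many subunits. One set is transcribed broadly, while others have been tied to particular tissues.

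The RNA came from whole bodies of female flies of the Oregon genotype in 4 groups of 3 libraries. Controls received medium with yeast, water and a green dye for 3 days. Cisplatin flies received a solution of cisplatin, a platinum compound that crosslinks DNA, in place of plain water, TiO2 flies received titanium dioxide nanoparticles, and combination flies received both at once. The dose of each substance is labelled as 50 µg per ml in the treatment protocol and as 50 mg per ml in the sample titles, so its unit is uncertain. The age of the flies and the number per library are not given in the labels, and nothing says that the libraries of a group came from separate cultures, so p-values measure only the spread between these libraries.

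Library totals ran from 26763042 to 46694769 counts, and levels are given in CPM (counts per megacount of the library total, scaled by TMM factors). A count of 0 allows up to 3 counts, which is 0.0648 to 0.112 CPM depending on the library and covers counting error only. Within groups, log2 CPM correlated at 0.810 to 0.988 across genes, with the lowest values in control and combination. One library went against its label. All 14 testis marker genes were highest in the library labelled combination replicate 2, where they summed to 1129 CPM against 0.0745 to 1.82 CPM in the other 11 libraries. Male accessory gland markers summed to 716 CPM there against 0.111 to 0.513 CPM, and the 2 roX RNAs of male dosage compensation to 167 CPM against 0.164 to 5.44 CPM. This library carried male transcripts although the labels name females, and the values of the fits without it are given beside those of all 12 libraries. Mitochondrial genes took 16.7% of the counts of control replicate 1 and 12.4% of the library labelled combination replicate 2, against 6.20% to 9.45% in the other 10.

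Together the 32 genes summed to 7765, 6207 and 6011 CPM in the control libraries, 6161, 6151 and 6087 with cisplatin, 5554, 6680.2 and 5954 with TiO2, and 5579, 7175 and 5731 with both. The group means were 6661 ± 961 CPM in control, 6133 ± 40.1 with cisplatin, 6063 ± 571 with TiO2, and 6162 ± 881 with both (SD, n = 3 each). On this scale the ranges of the 4 groups overlapped, and the highest sums were those of control replicate 1 and of the library labelled combination replicate 2. With library totals left unscaled, the control sums were 6948, 6388 and 6309.9 CPM. The unscaled cisplatin sums, at 6105, 6101 and 6034 CPM, lay below all controls. Unscaled sums with TiO2 (5968, 6502 and 5976 CPM) and with both (5616, 6956 and 5939 CPM) overlapped the control range. The 13 common subunit genes gave between 93.1% and 96.2% of the sum in every library.

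**Figure D1:**
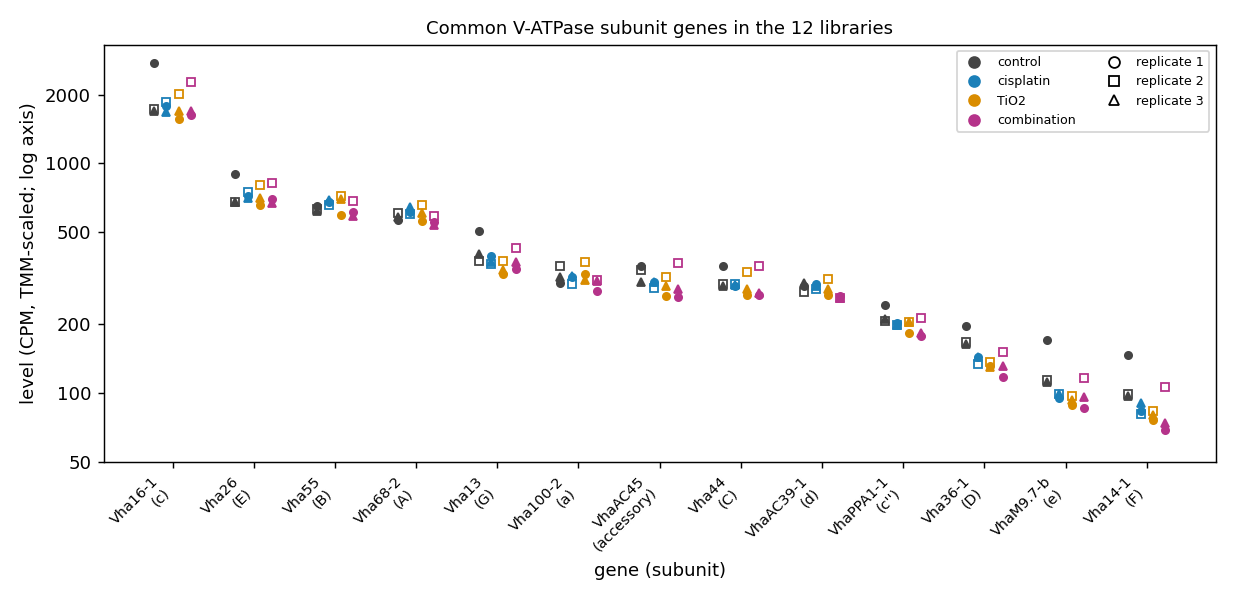
Level of the 13 common subunit genes (CPM on a log axis) in each of the 12 libraries, with colour for the group, marker shape for the replicate and the subunit in parentheses. Vha16-1 lies highest at 1564 to 2746 CPM, Vha55, Vha68-2 and VhaAC39-1 are nearly level across libraries, and control replicate 1 stands above the other controls for Vha16-1, Vha26, Vha13, VhaM9.7-b and Vha14-1.

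Among the catalytic head subunits, Vha68-2 encodes the common A subunit, which hydrolyses ATP (FBgn0263598, chromosome 2L, 12974322 to 12978607 in the coordinates of the table, which equal those of BDGP6.54 for all 32 members). Its level was 567, 610.3 and 586 CPM in control, 615, 604 and 648 with cisplatin, 559, 656 and 607 with TiO2, and 557, 590.3 and 537 with both. The highest library was 1.22 times the lowest and the control range overlapped that of each treated group. Vha55 encodes the B subunit, which binds nucleotide without hydrolysing it, and it has no paralog among the members. It was at 649, 633 and 619 CPM in control, 682, 659 and 695 with cisplatin, 599, 722 and 700.4 with TiO2, and 615, 685 and 592 with both. It too varied 1.22-fold over the 12 libraries. VhaAC39-1, the d subunit that joins the membrane ring to the shaft, ranged from 258 to 313 CPM, also a 1.22-fold range, and its 3 combination libraries (263, 258 and 259 CPM) lay below all 3 controls (293, 274 and 301). Among the 3879 genes with a mean of at least 50 CPM, the SD of log2 CPM over the 12 libraries was 0.37 in the median gene. That of Vha68-2 was 0.09, at percentile 0.567, that of VhaAC39-1 was 0.09, at percentile 0.902, and that of Vha55 was 0.10, at percentile 0.980. These percentiles describe how evenly the genes were counted in these libraries and carry no test.

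The stator genes were slightly more variable. Vha26, subunit E of the peripheral stalk, stood at 901, 678 and 682 CPM in control and between 657 and 824 CPM in the 9 treated libraries. Vha13, its stalk partner subunit G, stood at 509, 374 and 402 CPM in control and between 330.4 and 426 CPM in treated flies. Vha44, subunit C at the foot of the stalk, ranged from 267 to 357 CPM, and its exons share 148 bases with Hmgs on the opposite strand, so part of its count could belong to that gene. In all 3 genes the control range overlapped the treated ranges, and for Vha26 and Vha13 the highest library was control replicate 1. VhaSFD, which encodes the regulatory subunit H, was at 239, 247 and 194 CPM in control and from 170.0 to 254 CPM in the treated libraries.

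In the membrane sector Vha16-1, the main proteolipid of the rotating ring, had the highest level of all members (FBgn0262736, chromosome 2R, 6625242 to 6633090). It measured 2746, 1736 and 1691 CPM in control, 1777, 1859 and 1676 with cisplatin, 1564, 2010.1 and 1694 with TiO2, and 1625, 2276 and 1701 with both. Control replicate 1 and the library labelled combination replicate 2 stood out and the others lay between 1564 and 2010.1 CPM. Per kb of exon, Vha16-1 averaged 605 CPM over the 12 libraries, ahead of Vha13 at 407, Vha26 at 251, Vha55 at 235 and Vha68-2 at 216. The lowest common subunits on that per-length scale were Vha100-2 at 99.0 CPM per kb, VhaM9.7-b at 86.3 and Vha44 at 74.8. The ring takes several copies of the c subunit in each pump, and the head and stalk subunits A, B, E and G are also present in more than 1 copy. VhaPPA1-1, the second type of ring proteolipid (c''), ranged from 176 to 241 CPM. VhaAC45, an accessory subunit of the membrane sector, ranged from 260.2 to 368 CPM.

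Of the 13 common genes, 8 varied by less than 1.5-fold over all 12 libraries, and the widest ranges belonged to a few small subunits. Vha14-1 encodes subunit F of the central shaft (chromosome 2R, 15679426 to 15680084, a single exon). It was at 145, 98.3 and 96.8 CPM in control, 82.8, 80.3 and 90.3 with cisplatin, 75.7, 82.9 and 79.6 with TiO2, and 68.9, 106 and 73.9 with both. All 6 single-treatment libraries lay below the 3 controls, and 1 combination library, the one labelled replicate 2, lay among them. Vha36-1 encodes subunit D, the other shaft subunit (chromosome 2R, 15541435 to 15542498, a single exon). Its level was 195, 167 and 164 CPM in control, 143, 133 and 143 with cisplatin, 130.2, 136 and 129.8 with TiO2, and 117, 151 and 131 with both. Every treated library was below every control library. VhaM9.7-b, the small membrane subunit e (chromosome 3L, 21539862 to 21541215), was at 169, 113 and 111 CPM in control, 94.9, 98.5 and 98.6 with cisplatin, 87.9, 96.7 and 93.0 with TiO2, and 85.9, 116 and 95.3 with both. For this gene the cisplatin and TiO2 libraries all lay below the controls, while the library labelled combination replicate 2 lay within the control range.

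Treatments were compared with control by edgeR's quasi-likelihood test on 11060 genes, fitted to all 12 libraries. The count filter kept 22 members, the 13 common genes and 9 other paralogs, and left out 10 paralogs. At an adjusted p of 0.05 (Benjamini-Hochberg over all genes) 0 of the 22 passed in any of the 6 comparisons, in which 0% of all genes passed. The smallest adjusted p of a member was 0.270 for cisplatin, 0.300 for TiO2 and 0.603 for the combination, and it was 0.334 for the combination against cisplatin, 0.617 against TiO2 and 0.129 for the interaction (the combination's departure, on the log2 scale, from the sum of both single effects). By DESeq2, an alternative test of the same counts, Vha36-1 alone among the members passed against control, in TiO2 (adjusted p = 0.0271, where 3.00% of genes passed as lower) and in the combination (adjusted p = 0.0488, where 0.843% did). No member passed by DESeq2 for cisplatin, where 1.86% of genes passed as lower. More members and more genes passed by DESeq2 without the library labelled combination replicate 2, an alternative added after the data were seen. In cisplatin Vha36-1, Vha36-3, Vha68-1, VhaAC45RP and VhaM9.7-a then passed as lower, as did 16.6% of all genes. In TiO2 the members that passed as lower were Vha36-1, Vha14-1, Vha36-3 and VhaM9.7-a (11.7% of all genes), and in the combination they were Vha36-1, Vha14-1 and Vha100-5 (3.86% of all genes). In the authors' deposited table of each comparison no member passed an adjusted p of 0.05, where 0.878% of genes did so for cisplatin, 4.03% for TiO2 and 0.484% for the combination. The adjusted p of Vha36-1 in the authors' deposited table was 0.0999, 0.203 and 0.0693 in that order.

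Most common genes lay slightly below control. For cisplatin 10 of 13 had a negative log2 fold change, with a median of -0.14 against -0.03 over all genes tested. For TiO2 the count was again 10 and the median -0.16 against -0.08, and for the combination 12 and -0.12 against 0.05. Over all genes tested, 51.3%, 53.9% and 45.1% had a negative value in the 3 comparisons. The median of their log2 CPM in a library had an SD of 0.15 between replicates, pooled over the 4 groups. Without control replicate 1 the medians of the common genes were -0.05 for cisplatin, -0.03 for TiO2 and -0.09 for the combination. Those of all genes were then -0.01, -0.06 and 0.03, so for TiO2 the common genes no longer lay below all genes. Without the library labelled combination replicate 2, all 13 were lower in the combination, with a median of -0.26 against -0.09 over all genes. Scaling by upper quartile moved the median of all genes to -0.23 for cisplatin and -0.28 for TiO2, and with it all 13 common genes lay below control in each treatment.

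Vha36-1 had the smallest unadjusted p of the members for TiO2 and for the combination. Its means were 175 ± 17.6 CPM in control, 140.0 ± 5.84 with cisplatin, 132 ± 3.53 with TiO2, and 133 ± 16.9 with both (SD, n = 3 each). The log2 fold change was -0.41 ± 0.14 (SE) for TiO2 (unadjusted p = 0.0159, adjusted p = 0.300), -0.38 ± 0.14 (SE) for the combination and -0.32 ± 0.14 (SE) for cisplatin. Leaving out each library in turn kept the TiO2 value between -0.45 and -0.34, and without the library labelled combination replicate 2 the combination value was -0.50. VhaM9.7-b and Vha14-1 followed, with log2 fold changes of -0.50 and -0.52 for TiO2 and of -0.39 and -0.44 for the combination. Without control replicate 1 the TiO2 values of VhaM9.7-b and Vha14-1 were -0.29 and -0.31, so that library carried much of the size of both differences.

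**Figure D2:**
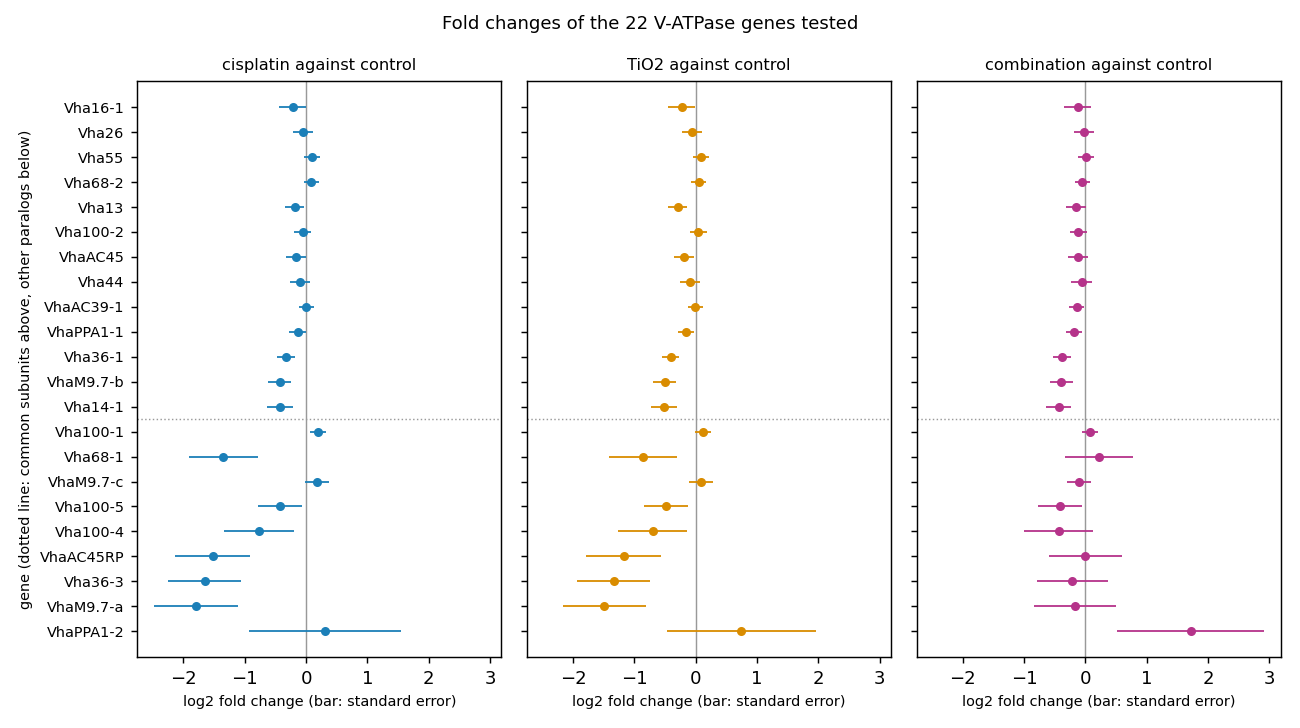
Log2 fold change against control of the 22 members tested (points) with standard errors (bars), 1 panel for each treatment, common subunits above the dotted line. Common genes lie close to 0 with Vha36-1, VhaM9.7-b and Vha14-1 lowest among them, while Vha68-1, VhaAC45RP, Vha36-3 and VhaM9.7-a lie below 0 in the single treatments and near 0 in the combination with wide bars.

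At an unadjusted p under 0.05, 6 of the 22 members (27.3%) were lower in cisplatin, where 15.0% of all genes were. They were Vha36-1, VhaM9.7-b, Vha36-3, Vha68-1, VhaAC45RP and VhaM9.7-a. For TiO2 the 4 lower members (18.2%, against 12.8% of all genes) were Vha36-1, VhaM9.7-b, Vha14-1 and Vha36-3, and for the combination Vha36-1 alone was lower (4.55%, against 3.82%). No member was higher than control at that level. These counts moved with single libraries. Without control replicate 1 there were 0 lower members for cisplatin, 1 for TiO2 and 0 for the combination, where 4.81%, 5.78% and 2.43% of all genes were lower. Without the library labelled combination replicate 2 there were 7, 7 and 5 lower members, where 25.2%, 21.1% and 13.1% of all genes were lower, so the counts over all genes moved with those of the members.

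Where CPM ranges of 2 groups did not overlap was also counted over the 22 members. In cisplatin 8 were lower than every control (15.0% of all genes were), namely Vha14-1, Vha36-1, VhaM9.7-b, VhaPPA1-1, Vha100-5, Vha36-3, Vha68-1 and VhaAC45RP. In the same comparison 2 were higher, Vha55 and Vha100-1 (15.6% of all genes). Some of these gaps were very small. Vha100-1 was at 124.35 CPM in its lowest cisplatin library against 124.34 in its highest control. The highest cisplatin library against the lowest control was 5.53 against 5.55 CPM for VhaAC45RP. It was 27.8 against 28.3 CPM for Vha68-1 and 28.2 against 28.3 CPM for Vha100-5. In TiO2 5 were lower (14.9% of all genes), and these were Vha14-1, Vha36-1, VhaM9.7-b, VhaPPA1-1 and Vha36-3. In the combination Vha36-1 and VhaAC39-1 were lower (5.56% of all genes). The 3 shaft and membrane genes Vha36-1, Vha14-1 and VhaM9.7-b thus lay below control without overlap in both single treatments, as did VhaPPA1-1, where the separation was narrow (205 CPM in the lowest control against 203 CPM in the highest TiO2 library).

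Several paralogs varied much more between libraries than the common genes did. Vha68-1, a second catalytic A subunit (FBgn0265262, chromosome 2L, 13000770 to 13004107), was at 85.4, 78.9 and 28.3 CPM in control, 21.8, 26.1 and 27.8 with cisplatin, 40.4, 37.5 and 28.0 with TiO2, and 27.3, 143 and 50.3 with both. Control replicate 3 lay with the treated libraries, and the combination spanned nearly the whole range. Vha36-3, a paralog of the shaft subunit D (FBgn0040377, chromosome X, 2579091 to 2580560), was at 19.4, 15.2 and 6.62 CPM in control, 3.91, 4.48 and 4.71 with cisplatin, 5.50, 5.78 and 4.99 with TiO2, and 4.27, 23.7 and 6.90 with both. VhaAC45RP, a paralog of the accessory subunit (FBgn0051030, chromosome 3R, 30164692 to 30166419), was at 19.6, 18.5 and 5.55 CPM in control, 4.88, 5.53 and 4.71 with cisplatin, 8.04, 5.50 and 5.73 with TiO2, and 4.57, 27.1 and 11.2 with both. VhaM9.7-a, a paralog of the small subunit e (FBgn0035521, chromosome 3L, 4262705 to 4263464), was the least abundant of the 4, at 5.82, 4.21 and 1.25 CPM in control, 0.865, 1.11 and 1.28 with cisplatin, 1.45, 1.48 and 1.08 with TiO2, and 1.000, 6.36 and 2.47 with both. In each of these 4 paralogs the 4 highest libraries were, in descending order, the one labelled combination replicate 2, control replicate 1, control replicate 2 and combination replicate 3.

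That order was also the order of the summed muscle markers and of the summed nervous system markers. Muscle markers (6 genes, all detected in every library) summed to 32470.2, 21422 and 3833 CPM in control, 2247, 4918 and 5912 with cisplatin, 8894, 8037 and 4540.0 with TiO2, and 2763, 38353 and 12403 with both. Of the 22 members with a count in every library, 4 (18.2%) had their 4 highest libraries in that order, as did 794 of the 11339 genes with a count in every library (7.00%). The same 4 libraries in any order were highest in 17.1% of those genes, and again in 4 of the 22 members (18.2%). The 5 nervous system markers summed to 350.1, 328 and 123.2 CPM in control, 108 to 164 with cisplatin, 153 to 188 with TiO2, and 171, 698 and 243 with both. The sum of the 8 ovary markers ran the other way, at 1109, 1076 and 1694 CPM in control, 2065 to 2169 with cisplatin, 1691 to 2167 with TiO2, and 2158, 986 and 1483 with both. Not every gene of that list did so. Of the 8, 1 was highest in the library labelled combination replicate 2. This was grk, at 26.5 CPM there and 25.3, 24.9 and 17.8 CPM in control. The level of orb there, 385 CPM, lay within its control range of 303 to 406 CPM. The part of tissue makeup in the paralogs' differences was not tested, and in bulk RNA fewer cells of a type and less RNA per cell cannot be told apart. Vha68-2, the common paralog of Vha68-1, stayed between 537 and 656 CPM over the same libraries.

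**Figure D3:**
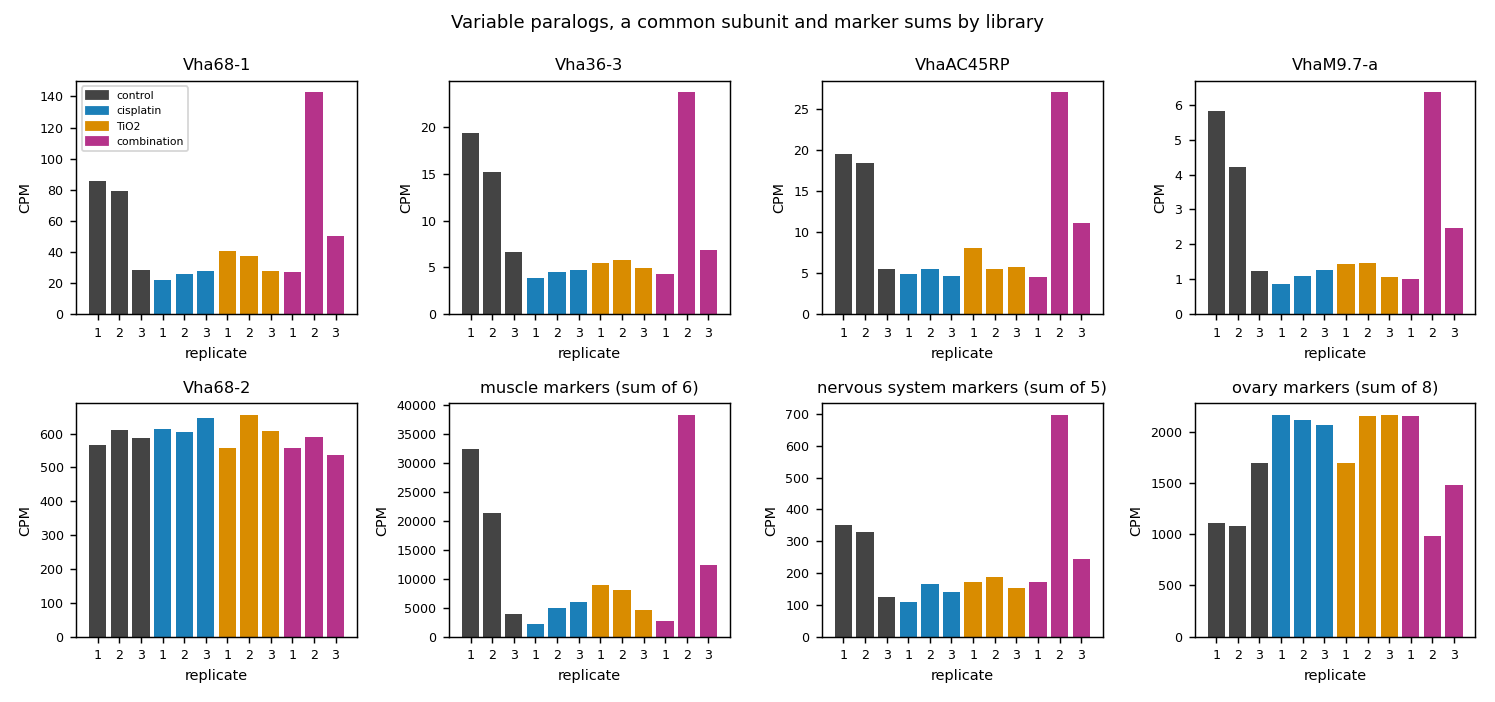
Levels (CPM, bars from 0) in each library of Vha68-1, Vha36-3, VhaAC45RP and VhaM9.7-a, of the common gene Vha68-2, and of the summed muscle, nervous system and ovary markers. Control replicates 1 and 2 and the library labelled combination replicate 2 are high in the 4 paralogs and in the muscle and nervous system sums, low in the ovary sum, and not set apart in Vha68-2.

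In the fit for cisplatin against control, Vha36-3 had a log2 fold change of -1.65 ± 0.59 (SE), VhaM9.7-a of -1.79 ± 0.69 (SE) and VhaAC45RP of -1.52 ± 0.61 (SE), each with an adjusted p of 0.270. Leaving out each library in turn moved the value for Vha36-3 between -1.98 and -1.33. For the combination against cisplatin, 4 members were higher at an unadjusted p under 0.05 (18.2%, against 13.4% of all genes), and these were Vha68-1, VhaAC45RP, Vha36-3 and VhaM9.7-a. The log2 fold change of Vha68-1 was 1.57 ± 0.57 (SE), with an adjusted p of 0.334. Without the library labelled combination replicate 2 it was 0.62, and no member then reached an unadjusted p of 0.05. For the combination against TiO2, 0 members reached that level. The 3 with the smallest p were VhaM9.7-a (log2 fold change 1.32), Vha68-1 (1.09) and VhaAC45RP (1.18), which were 0.38, 0.14 and 0.29 without the same library.

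For the interaction the same 4 paralogs were higher at an unadjusted p under 0.05 (18.2% of the members tested, against 26.7% of all genes). The log2 values were 2.78 ± 0.83 (SE) for Vha36-3, 3.11 ± 0.96 (SE) for VhaM9.7-a, 2.70 ± 0.86 (SE) for VhaAC45RP and 2.43 ± 0.80 (SE) for Vha68-1, with an adjusted p of 0.129 each. By DESeq2 these 4 passed an adjusted p of 0.05 (0.0334 to 0.0423), in a comparison where 10.8% of all genes passed as higher. By edgeR these 4 of 23 members passed when control replicate 3 was left out (adjusted p = 0.0492). In that fit 1752 of 11289 genes passed, 1568 of them as higher. Without combination replicate 1, 5 of 23 members passed (adjusted p = 0.0381), and so did 2823 of 11290 genes, 2496 of them as higher. The fifth member was Vha68-3, with 97.6% of its counts in the library labelled combination replicate 2. Without the library labelled combination replicate 2 the values were smaller, at 1.69 for Vha36-3, 2.17 for VhaM9.7-a, 1.81 for VhaAC45RP and 1.48 for Vha68-1. All 4 were then still higher at an unadjusted p under 0.05, where 14.8% of all genes were, and 0 genes passed after adjustment, as in the edgeR fit of all 12 libraries. When each of the 12 libraries was omitted in turn, the highest unadjusted p was 0.0189 for Vha36-3, 0.0237 for VhaM9.7-a, 0.0256 for VhaAC45RP and 0.0293 for Vha68-1. By DESeq2 without the library labelled combination replicate 2, 0 members passed, where 1.38% of all genes passed as higher.

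The remaining paralogs that were counted throughout differed in their spread. Vha100-1, the neuronal subunit a needed at synapses, was at 96.8, 124 and 113 CPM in control and between 111 and 129.5 CPM in the 9 treated libraries. It did not follow the nervous system markers, being lowest in control replicate 1 and at 111 CPM in the library labelled combination replicate 2, which had the highest nervous marker sum. Vha100-4, another subunit a, was at 32.4 CPM in control replicate 1 and 22.9 CPM in the library labelled combination replicate 2, and between 5.403 and 13.8 CPM elsewhere. Its exons share 47 bases with cona on the opposite strand. Vha100-5, a further subunit a, was at 40.2, 38.1 and 28.3 CPM in control, 24.2 to 28.2 with cisplatin, 21.0 to 29.8 with TiO2, and 12.9, 42.6 and 23.5 with both. As 527 of its 2918 exon bases are shared with the antisense gene asRNA:CR44144, and the strand setting of the counting is not given in the sources used here, these counts are uncertain. VhaM9.7-c, a further subunit e, ranged from 29.5 to 38.7 CPM in 11 libraries and was lowest, at 22.3 CPM, in the library labelled combination replicate 2.

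A last set of paralogs was almost absent from 11 libraries. The 10 members left out by the filter held 3313 counts in the library labelled combination replicate 2 and 134 counts in the other 11 together, so that 96.1% of their counts lay in that library. Their summed level was 97.6 CPM there against 0.121 to 0.694 CPM elsewhere. Vha68-3, the third A subunit, led with 1552 counts there (45.7 CPM) and 38 counts elsewhere, and it starts 178 bases past the end of Vha68-2 on the same strand. Vha100-3, a subunit a, had 728 counts against 3, and Vha36-2, a subunit D, had 538 against 13. In these genes the level elsewhere was at or near the limit of a count of 0.

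Most of the less abundant members of the set were also counted mainly in that library. Vha14-2, a subunit F, had 214 counts in that library and 7 elsewhere, and VhaM9.7-d, a subunit e, had 170 and 1. Of the proteolipid paralogs, Vha16-3 had 36 and 1, Vha16-5 had 24 and 10, and Vha16-4 had 9 and 1. VhaAC39-2, a subunit d, differed in having a count in all 12 libraries and only 41.2% of its counts in that library, with 42 counts there and 60 elsewhere. Vha16-2 had 0 counts in every library, which allows up to 0.112 CPM, and 503 of its 595 exon bases are shared with the antisense gene asRNA:CR46049. VhaPPA1-2, a c'' paralog, passed the filter with 37 counts in that library and 61 elsewhere, and its log2 fold change of 1.72 ± 1.20 (SE) for the combination rested on it, with means of 0.124 ± 0.156 CPM in control and 0.429 ± 0.574 in the combination (SD, n = 3 each), or 0.0988 without it. Of the 14 testis markers 3 were at 0 in all other libraries, as was Vha100-3 in 10 of them. Combination replicate 3 had 0.311 CPM of Vha68-3 against 0.146 CPM in the highest control, and 0.0718 CPM of Vha100-3. That library had the second highest testis marker sum, at 1.82 CPM.

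**Figure D4:**
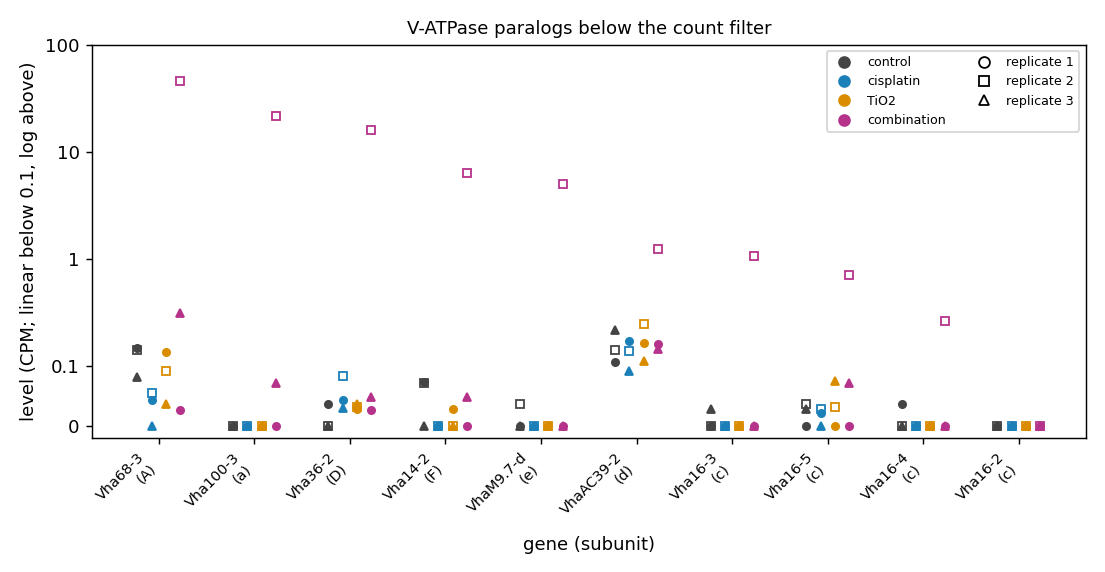
Level (CPM, linear below 0.1 and log above) in each library of the 10 paralogs that the count filter left out. The open square of combination replicate 2 stands above all other libraries in 9 genes, from 0.265 CPM for Vha16-4 to 45.7 CPM for Vha68-3, and Vha16-2 is at 0 throughout.

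Paralogs of a subunit can fill the same place in the pump, so their shares were also taken, as the percentage of CPM per kb of exon within a subunit. For subunit A, Vha68-1 made up 13.4%, 11.8% and 4.73% in control, 3.53%, 4.26% and 4.24% with cisplatin, 6.93%, 5.55% and 4.54% with TiO2, and 4.81%, 18.6% and 8.80% with both. Vha68-3 added 6.537% in the library labelled combination replicate 2 and at most 0.0596% elsewhere, so that Vha68-2 held 74.8% there and 86.5% to 96.5% in the other 11. For subunit D, Vha36-1 held 82.2% in that library, where Vha36-3 had 10.7% and Vha36-2 had 7.11%, and 92.5% to 97.8% elsewhere. The accessory subunit was VhaAC45 at 91.9% or more in every library.

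Other subunits were shared more evenly. For subunit a, Vha100-2 held 60.1% to 68.7% and Vha100-1 19.8% to 29.2%, with Vha100-5 and Vha100-4 at 3.38% to 9.28% and 1.51% to 8.00%, and Vha100-3 reached 4.55% in the library labelled combination replicate 2. For subunit e, VhaM9.7-b made up 70.2% ± 4.44 in control, 63.5% ± 1.01 with cisplatin, 63.5% ± 1.22 with TiO2, and 64.5% ± 3.33 with both (SD, n = 3 each). VhaM9.7-c made up 26.4% ± 5.98, 35.3% ± 1.23, 34.9% ± 1.48 and 29.6% ± 9.81 in the same order. The controls spanned 66.1% to 74.9% for VhaM9.7-b and lay above all cisplatin and TiO2 libraries, with no test made of shares. In subunits c, c'', d and F the common gene held at least 97.7% in every library.

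**Figure D5:**
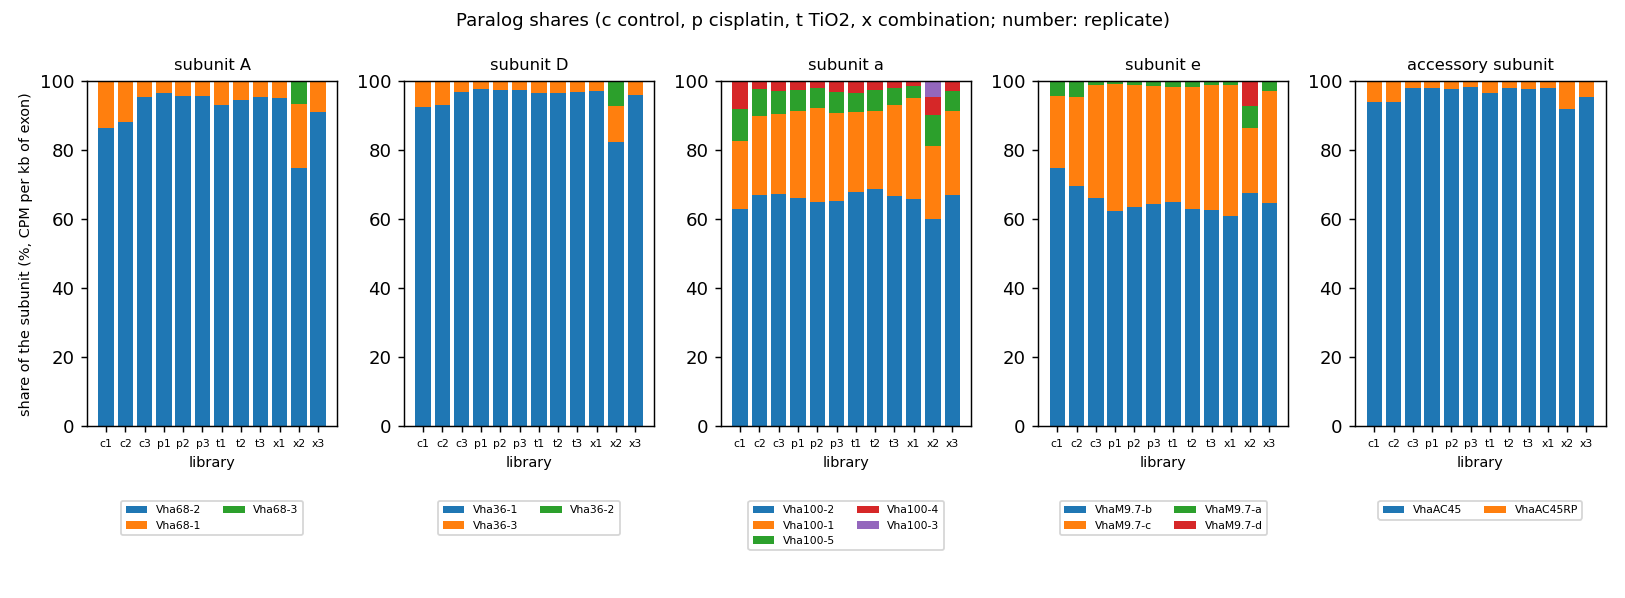
Share of each paralog within its subunit (% of CPM per kb of exon, stacked to 100) in the 12 libraries, for subunits A, D, a and e and the accessory subunit, with libraries ordered by group and replicate. The bar of combination replicate 2 (x2) has the smallest share of Vha68-2 (74.8%) and Vha36-1 (82.2%), and subunits a and e are divided among several genes in all libraries.

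Several paralogs of 1 subunit sit side by side in the genome. Vha68-2 and Vha68-3 lie 178 bases apart, Vha100-4 and Vha100-2 517, Vha16-3 and Vha16-2 985, and VhaPPA1-2 and VhaPPA1-1 2052, each pair on 1 strand. In each pair except the proteolipid pair Vha16-3 and Vha16-2, a common gene neighboured a paralog counted far less. The 32 genes are protein coding, with 12 on chromosome 3R, 8 on 2R, 5 each on 2L and 3L, and 2 on X. Exon bases of 6 members overlap another gene.

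Genes around the pump were read from 3 lists. The list of assembly and sensing factors covered the RAVE-like proteins that put the pump together, the transcription factor Mitf, and the mTOR complex and its lysosomal anchors. The list also held ATP6AP2 and the subunit H gene VhaSFD. Of its 15 genes 14 were tested, and 0 had an unadjusted p under 0.05 by edgeR in any of the 6 comparisons. Of all 11060 genes 2026 did for cisplatin, 1824 for TiO2 and 784 for the combination. For the combination against cisplatin 1592 did, against TiO2 750, and for the interaction 3502. By DESeq2, 0 of the list passed after adjustment, where 212, 369, 102, 38, 3 and 1279 of all genes did in that order. With the library labelled combination replicate 2 left out, 2 were higher in cisplatin and 2 in TiO2 and 1 was lower in the combination at that unadjusted level (13.4%, 13.9% and 13.1% of all genes), and DESeq2 again passed 0. In these 3 comparisons 2296, 1780 and 458 of all genes then passed by DESeq2. Rbcn-3B, a RAVE-like protein, was at 70.4, 75.5 and 80.9 CPM in control, 87.8, 83.4 and 99.4 with cisplatin, 84.2, 100.1 and 90.0 with TiO2, and 92.0, 81.8 and 83.8 with both. Every treated library lay above every control library for Rbcn-3B, and its log2 fold change for TiO2 was 0.27 ± 0.13 (SE, edgeR adjusted p = 0.300). The kinase mTor was at 49.3, 72.4 and 95.8 CPM in control, below the 98.6 to 104.5 CPM of the TiO2 libraries, while the cisplatin and combination ranges overlapped that of control. Lamtor4, a lysosomal anchor, went the other way, at 27.3, 19.4 and 18.3 CPM in control and 15.5, 17.8 and 17.8 with TiO2. Its log2 fold change for TiO2 was -0.35 ± 0.19 (SE, edgeR adjusted p = 0.312). The cisplatin (21.4, 20.1 and 18.2 CPM) and combination (16.6, 18.6 and 17.8 CPM) ranges of Lamtor4 overlapped that of control.

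The lysosome list held hydrolases and membrane proteins of the compartment that the pump acidifies. Of its 20 genes 19 were tested, and 0 passed in edgeR. At an unadjusted p under 0.05, 5 were lower in cisplatin (against 15.0% of all genes), 6 in TiO2 (12.8%) and 4 in the combination (3.82%), with medians of -0.41, -0.38 and -0.15 on the log2 scale against -0.03, -0.08 and 0.05 over all genes. For the interaction 5 were higher (26.7% of all genes). The lower genes of the list, without the library labelled combination replicate 2, numbered 9, 7 and 8 (25.2%, 21.1% and 13.1% of all genes), and the median for the combination was -0.40. CtsB, a cathepsin protease, was at 327, 388 and 292 CPM in control, 244, 227 and 237 with cisplatin, 197, 182 and 218 with TiO2, and 218, 245 and 239 with both. All 9 treated libraries lay below all controls for CtsB, and it passed in DESeq2 in all 3 comparisons (adjusted p = 0.0140, 3.18e-05 and 0.0175), as it did without the library labelled combination replicate 2 (0.0144, 0.000187 and 0.0465). In edgeR its log2 fold changes were -0.51, -0.76 and -0.51 with standard errors of 0.14 to 0.15 (adjusted p = 0.270, 0.276 and 0.6002). The aspartic protease cathD went from 392 ± 43.5 CPM in control to 277 ± 32.4, 243 ± 18.1 and 271 ± 48.2 CPM (SD, n = 3 each), and passed in DESeq2 for TiO2 alone (adjusted p = 0.00697). The lipid transfer protein Npc2a went from 102 ± 23.4 to 67.8 ± 6.60, 57.4 ± 0.711 and 69.4 ± 19.6 CPM and also passed in DESeq2 for TiO2 (adjusted p = 0.0310). Without the same library cathD and Npc2a passed in DESeq2 in all 3 comparisons. The 9 midgut markers, a tissue rich in digestive proteases, summed to 2929, 4628 and 4389 CPM in control, 2698 to 3416 with cisplatin, 1515 to 3131 with TiO2, and 1493 to 1842 with both, and their part in the lysosome list was not tested.

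The list of tubule ion and water transport held channels, cotransporters and receptors that work beside the pump in fluid secretion. All 17 genes were tested and 0 passed in edgeR. At an unadjusted p under 0.05, 5 were lower with cisplatin (against 15.0% of all genes), 5 with TiO2 (12.8%) and 0 with both (3.82%), with medians of -0.59, -0.59 and -0.22. For the interaction 8 of the 17 were higher at that level, where 26.7% of all genes were, and the list's median was 1.24 against 0.07 over all genes. By DESeq2, 3 passed for the interaction (10.8% of all genes passed as higher) and 0 against control. The lower genes without the library labelled combination replicate 2 numbered 8, 8 and 7 (25.2%, 21.1% and 13.1% of all genes), and 5 were higher for the interaction (14.8%) with a median of 0.74. By DESeq2 without that library 6 passed as lower for cisplatin (16.6% of all genes), 7 for TiO2 (11.7%), and 0 for the combination and for the interaction. The inward rectifier potassium channel Irk2 was at 71.4, 68.9 and 28.7 CPM in control, 19.5, 19.95 and 22.4 with cisplatin, 26.0, 21.6 and 21.0 with TiO2, and 17.7, 58.6 and 32.2 with both. Its high libraries were those of Vha68-1 and of the muscle and nervous system marker sums. The water channel Drip and the chloride channel SecCl had the same high libraries, with 24.5 and 8.06 CPM in control replicate 3 against 55.4 and 15.4 CPM in control replicate 1. The 6 Malpighian tubule markers, 3 of which are also in the list, summed to 245, 209 and 171 CPM in control, 150.5 to 168 with cisplatin, 134 to 168 with TiO2, and 142, 300.1 and 159.8 with both. The part of that shift in the list's values was not tested.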

How the data were processed

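RNA from 12 whole-body libraries was sequenced from stranded mRNA preparations, per the labels' protocols. The authors deposited raw counts per gene in 1 table. Its columns are those of a featureCounts output, per the file headers. The submitters' processing notes name FastQC, Trimmomatic, SAMtools, HTSeq and BWA, without roles. Genome build, annotation and strand setting are not given in the sources used here. The authors also deposited 3 tables of treatment against control with log2 fold changes, p-values and adjusted p-values, per the file headers. They were used only where named. A base mean in them was not used, and 0 columns of per-sample values were left out.

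Of the gene identifiers, 17601 matched the BDGP6.54 annotation, which gave the overlaps with other genes. Symbols came from a list of gene names, and the exon lengths used per kb were those deposited with the counts. Samples were grouped by their descriptions. Counts were tested with edgeR 4.0.16 (R 4.3.3): filterByExpr on 4 groups (11060 genes kept; 1469 genes had 0 counts throughout), TMM scaling, glmQLFit and glmQLFTest, and Benjamini-Hochberg adjustment over all genes at 0.05. There were 6 contrasts, all for either direction. The SE of an edgeR log2 fold change was derived from the test, as its absolute value divided by the square root of the F statistic. DESeq2 1.42.0 and limma 3.58.1 (voom with sample weights), other scalings, no filter, a replicate block and leaving out each library were the alternatives, and DESeq2 without the library labelled combination replicate 2 was added after the data were seen. CPM use TMM-scaled totals of all genes. Libraries of a group differed by a chi-square per gene of at least 41.5, so none was a repeated deposit. Named members were the 3 with the smallest p in each comparison, and other members are described by role. Members, lists and settings were chosen with earlier results of these data known. No sequences are shown.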

Additional observations from a re-analysis of the deposited data

How the results depend on the processing

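Medians near 0 changed sign under some settings, given below. RLE scaling, no filter on low counts and the replicate block left the count of genes passing at 0 in all 6 comparisons. By DESeq2 the numbers of genes that passed were 212 for cisplatin, 369 for TiO2, 102 for the combination, 38 for the combination against cisplatin, 3 against TiO2 and 1279 for the interaction, with 1, 1 and 4 members for TiO2, the combination and the interaction. Between 10082 and 14470 genes and 21 to 26 members were tested. By DESeq2 without the library labelled combination replicate 2 the numbers of genes were 2296, 1780, 458, 6, 1 and 151 in that order, with 5, 4, 3, 0, 0 and 0 members. Between 10315 and 15323 genes were then tested. By voom with sample weights 8136, 7905, 6462, 2618, 348 and 7963 of 11060 genes passed in that order. Of the 22 members tested by voom, 10, 10, 12, 6, 0 and 10 passed. The library labelled combination replicate 2 had a weight of 0.0623 there and combination replicate 3 one of 6.48. The cause of these differences was not tested. Upper-quartile scaling put the median of the common genes at -0.34 for cisplatin, -0.35 for TiO2, 0.15 for the combination against cisplatin and 0.48 for the interaction (-0.029 by voom for the interaction). The median of all genes moved to 0.40 for the interaction under that scaling. With unscaled totals the summed level in cisplatin was 6080.0 CPM. Leaving out each library in turn gave 0 to 14 genes for TiO2, 0 to 4 for the combination and 0 to 2823 for the interaction, and 0 to 5 members for the interaction. The median of the common genes for the combination against TiO2 then ranged from -0.13 (without combination replicate 2) to 0.11. Whether the replicate numbers pair the libraries was not settled. Deviations of same-numbered libraries correlated from -0.740 to 0.468 across genes, but libraries with different numbers were not compared. With the replicate block 0 genes passed in each comparison. At an unadjusted p under 0.05 there were then 1397, 1382, 463, 934, 316 and 2705 genes, against 2026, 1824, 784, 1592, 750 and 3502 without the block. Depth limits the 10 rare paralogs, which stood at or near the limit of a count of 0 in 11 libraries.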
